A study of Rattus norvegicus with 6 samples.

Results

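The DnaJ genes encode J-domain proteins, also called HSP40 proteins, the co-chaperones of the HSP70 chaperones. They were taken as all genes whose symbol starts with Dnaja, Dnajb or Dnajc followed by a digit, which gave 45 of the 32623 genes listed. The RNA came from cultured nucleus pulposus cells, which form the soft centre of an intervertebral disc. They were isolated from the lumbar spine of 4-week-old Sprague-Dawley rats, all male, and used at passages 3 to 5. In shBmal1 (3 libraries), the cells carried a lentivirus with a short hairpin RNA against Bmal1 for 72 hours, and in shNC (3 libraries) they carried a negative control hairpin for the same time. Bmal1 is a core transcription factor of the circadian clock. Both groups are cultured primary cells with a lentivirus. The comparison concerns transcripts after a knockdown, not a deletion, and the labels do not name the hairpin sequence or say how many hairpins were used. Nothing states that replicate libraries are separate cultures or rats. The p-values therefore reflect the scatter among these samples alone, and that scatter may be technical.

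A J domain binds HSP70 and stimulates its ATPase, so that HSP70 closes on a client protein that the J protein has often delivered. Class A and class B members are general folding co-chaperones of cytosol and nucleus, apart from some that work in other compartments. Class C members share little but the J domain and place HSP70 at a fixed site, such as the ribosome, the mitochondrial import pore or a clathrin-coated vesicle. In the endoplasmic reticulum (ER), where matrix-producing cells fold their collagens and proteoglycans, J proteins work with the HSP70 called BiP, encoded by Hspa5.

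The libraries differed in more than the hairpin. Total counts were 8773762 to 11679587 in shBmal1 and 44043803 to 49783710 in shNC, a mean 4.44-fold higher in shNC. Mitochondrial rRNA took 0.722 to 1.31% of counts in shBmal1 and 0.0330 to 0.0602% in shNC. The targeted gene, listed as Arntl, had 0.716, 1.39 and 0.690 FPKM (fragments scaled to transcript length and library size) in shBmal1, against 8.38, 9.19 and 9.90 FPKM in shNC, and 9.55% of the control level was left in scaled counts (exact two-sided permutation test, p = 0.1, the smallest that 3 against 3 libraries allow). Of 15 listed nucleus pulposus markers, 14 were found, and their summed level was 177 to 198 FPKM in shBmal1 and 392 to 398 FPKM in shNC. Among them Tbxt, the notochord marker, was at 0 in every library, and Acan and Col2a1, which define the cartilage-like matrix, fell (log2 fold changes −4.30 and −5.21). Over the 12 markers tested, 4 rose (Foxf1, Ca3, Slc2a1 and Hif1a, by 0.39 to 1.35), 4 fell and 4 did not pass, among them Sox9 at −0.044, and the median was 0.17. The 8 annulus, tendon and fibroblast markers summed to 1916 to 2324 FPKM in shBmal1 and 12660 to 14490 FPKM in shNC. Most of these sums was Col1a1, at 1577 to 2036 FPKM in shBmal1 and 11900 to 13760 FPKM in shNC. All 7 tested markers of that list fell (100%, background 35.3%). The 4 endothelial markers found summed to 0.515 to 0.621 FPKM in shBmal1 and 0.00819 to 0.0669 FPKM in shNC, the 6 macrophage and leukocyte markers to 15.4 to 20.2 FPKM in shBmal1 and 17.5 to 23.4 FPKM in shNC, and the 2 erythroid markers found to at most 0.175 FPKM in shBmal1 and 0.240 FPKM in shNC. Most of the macrophage and leukocyte sum was Cd14, at a mean of 15.7 FPKM in shBmal1 and 19.2 FPKM in shNC (log2 fold change −0.40). Cd68 went the other way, at a mean of 2.28 FPKM in shBmal1 and 0.288 FPKM in shNC (2.81). It passed the filter on low counts through shBmal1 alone. The part that depth, rRNA content and these markers have in the results on DnaJ genes was not tested. In bulk RNA, fewer cells of a type and less RNA per cell cannot be told apart.

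Of the 45 DnaJ genes, 41 had counts and 4 had none in any library. The silent members were Dnajb8, Dnajb13, Dnajc5b and Dnajc5g. The 41 with counts all passed the filter on low counts and were tested. At an adjusted p under 0.05 in edgeR's quasi-likelihood test, 15 rose in shBmal1 (36.6% of those tested), 10 fell (24.4%) and 16 did not pass. The 25 called members stand against a background of 71.3% of all genes called in either direction. Among all 14342 genes tested, 36.0% rose and 35.3% fell, so the share of DnaJ genes that rose lay at the level of the transcriptome. The median log2 fold change was 0.016 over the DnaJ genes and −0.014 over all genes tested. At least 2-fold rises were called for 11 members, or 26.8% (background 25.4%), and at least 2-fold falls for 3, or 7.32% (background 21.9%). The counts of 15 and 11 include Dnajb7, which passed the filter on low counts through shBmal1 alone, so that its direction was fixed. Groups did not overlap in scaled counts for 16 members that were higher (background 38.2%) and 13 that were lower (background 39.1%) in shBmal1. With FPKM rescaled to TPM, which moved the median of all genes to −0.35, 14 members were higher and 17 lower, against 15 and 10 here.

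The pool of DnaJ transcripts was larger in shBmal1, with Dnaja1 as its largest part. Summed FPKM over the family was 1432, 1593 and 1589 in shBmal1 and 735, 755 and 756 in shNC, a ratio of 2.05 between the means. Without Dnaja1 the sums averaged 1064 ± 65.3 FPKM in shBmal1 and 671 ± 9.55 FPKM in shNC (SD, n = 3 each). Rescaled to TPM, the family summed to 2656 ± 232 in shBmal1 and 1805 ± 11.7 in shNC (SD, n = 3 each), a ratio of 1.47. Dnaja1 alone made up 31.0, 31.0 and 30.6% of the summed FPKM in shBmal1, against 10.2, 10.25 and 10.7% in shNC.

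**Figure D1:**
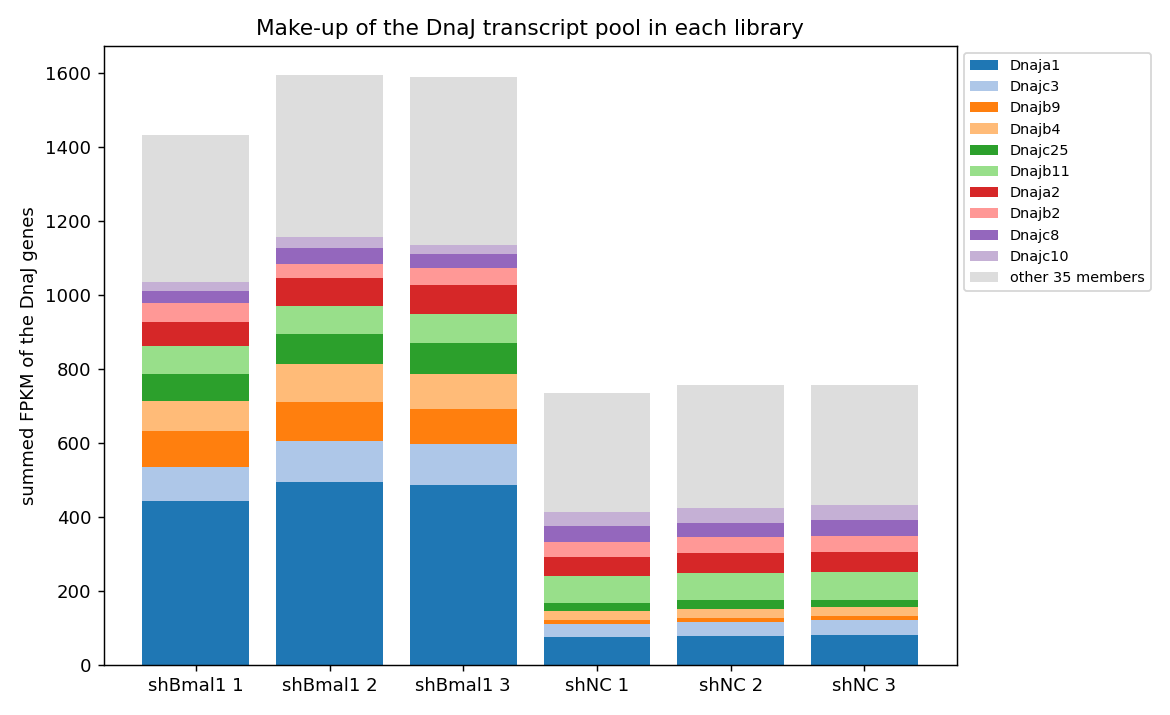
Summed FPKM of the 45 DnaJ genes in each library (bars), split into the 10 members that rank among the 6 most abundant of either group and the other 35 members. All 3 shBmal1 bars, at 1432 to 1593 FPKM, stand above the shNC bars, at 735 to 756 FPKM, and the Dnaja1 segment is the one that differs most.

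Dnaja1 was the most abundant member per length in both groups, but the order below it differed. In shBmal1 it was followed by Dnajc3, Dnajb9, Dnajb4, Dnajc25 and Dnajb11, and in shNC by Dnajb11, Dnaja2, Dnajb2, Dnajc8 and Dnajc10. In shBmal1, Dnajc3, Dnajb9 and Dnajb4 (105 ± 11.1, 97.9 ± 5.57 and 93.8 ± 11.9 FPKM; SD, n = 3) did not differ beyond their spread. Nor did Dnajc25 and Dnajb11 in shBmal1 (78.3 ± 5.84 and 77.6 ± 1.025 FPKM). In shNC, Dnaja1 and Dnajb11 lay close together at 77.7 ± 2.87 and 73.7 ± 1.01 FPKM (SD, n = 3), the lowest Dnaja1 library at 75.0 FPKM and the highest Dnajb11 library at 74.3 FPKM. Dnajc8 (41.7 ± 1.76 FPKM in shNC) overlapped both of its neighbours there, Dnajb2 (42.6 ± 1.05 FPKM) and Dnajc10 (40.7 ± 0.847 FPKM). Dnajb9 ranked 3 of 45 in shBmal1 and 23 in shNC. Across the 41 tested members the mean FPKM of the 2 groups had a Spearman correlation of 0.849, which describes these genes in the same 6 libraries.

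Among the general co-chaperones of cytosol and nucleus, 10 were tested. Of these, 7 rose (70%, background 36.0%), 1 fell (10%, background 35.3%) and the remaining 2 missed the threshold, with a median log2 fold change of 0.97. Dnajb7, one of the 7, passed the filter on low counts through shBmal1 alone. Dnaja1, a class A partner of the constitutive HSP70 protein HSC70 (ENSRNOG00000007029, chromosome 5, 57028467 to 57039378, forward strand; build: not given in the sources used here), had 443, 494 and 486 FPKM in shBmal1, against 75.0, 77.4 and 80.7 FPKM in shNC. The 3 shBmal1 libraries lay far above the 3 shNC libraries. The raw counts were 6702, 9845 and 9407 in shBmal1 and 5914, 6366 and 5885 in shNC, so that Dnaja1 had as many reads in the shallower libraries as in the deeper ones or more. Its log2 fold change was 2.50 ± 0.064 (SE; adjusted p = 5.46e-08, edgeR). Dnaja2, another class A member of the cytosol, had 64.7, 74.4 and 77.9 FPKM in shBmal1, against 49.9, 52.5 and 55.4 FPKM in shNC. Its rise was small (0.35 ± 0.080, SE; adjusted p = 0.00488, edgeR), was lost against a fold threshold of 1.2 (adjusted p = 0.0831) and came to −0.027 with TPM. Dnaja4 had 15.1, 18.5 and 21.1 FPKM in shBmal1 and 14.0, 14.4 and 12.2 FPKM in shNC, and with a log2 fold change of 0.32 (95% interval −0.0028 to 0.64) it did not pass. Its FPKM groups did not overlap, and it was called higher under 7 of 19 alternative settings, among them DESeq2 (adjusted p = 0.028) and total count scaling (adjusted p = 0.0136, edgeR).

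Dnajb1, the heat-inducible class B co-chaperone, had 46.1, 54.1 and 53.7 FPKM in shBmal1, against 23.0, 22.1 and 22.1 FPKM in shNC (log2 fold change 1.08 ± 0.081, SE; adjusted p = 8.64e-06, edgeR). Dnajb4, a close relative of Dnajb1, had 81.1, 104.6 and 95.6 FPKM in shBmal1, against 25.1, 25.3 and 24.9 FPKM in shNC. The groups were far apart for both genes, and the change of Dnajb4 was 1.79 ± 0.096 (SE; adjusted p = 1.41e-06, edgeR). Dnajb4 was thus more abundant than Dnajb1 in shBmal1, and the pair was nearly level in shNC. Dnajb6, which keeps polyglutamine proteins from aggregating, had 36.0, 44.1 and 41.9 FPKM in shBmal1, against 19.8, 22.8 and 20.2 FPKM in shNC (0.85 ± 0.097, SE). Dnajb5 was the member of the group that fell, with 5.63, 6.93 and 6.10 FPKM in shBmal1, against 9.44, 9.01 and 9.79 FPKM in shNC (−0.71 ± 0.11, SE; adjusted p = 0.000681, edgeR). Dnajb2, a J protein with ubiquitin-interacting motifs, had 51.1, 39.4 and 44.3 FPKM in shBmal1 and 41.4, 43.3 and 43.1 FPKM in shNC. The groups overlapped, and its log2 fold change of −0.033 had a 95% interval of −0.26 to 0.20, but with TPM it was called lower (−0.41; adjusted p = 0.00362, limma).

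Promoter sequence is shown for Dnaja1 and Dnajb1 because both rose and both are classical heat shock genes. Sequences are from RefSeq on the GRCr8 build, from 250 bases before the annotated gene start to 30 bases after it, 5′ to 3′ on the gene's strand, at chr5:60638154-60638433 (forward strand) for Dnaja1 and chr19:41431112-41431391 (reverse strand) for Dnajb1. Capitals mark matches to the heat shock element pairs GAANNTTC and TTCNNGAA, which overlap in the second run of Dnaja1.
Dnaja1: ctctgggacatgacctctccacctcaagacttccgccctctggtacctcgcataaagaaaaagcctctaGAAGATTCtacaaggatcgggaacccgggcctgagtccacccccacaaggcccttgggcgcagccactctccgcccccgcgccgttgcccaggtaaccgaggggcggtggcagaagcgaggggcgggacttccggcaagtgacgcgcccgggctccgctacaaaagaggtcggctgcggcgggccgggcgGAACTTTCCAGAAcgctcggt
Dnajb1: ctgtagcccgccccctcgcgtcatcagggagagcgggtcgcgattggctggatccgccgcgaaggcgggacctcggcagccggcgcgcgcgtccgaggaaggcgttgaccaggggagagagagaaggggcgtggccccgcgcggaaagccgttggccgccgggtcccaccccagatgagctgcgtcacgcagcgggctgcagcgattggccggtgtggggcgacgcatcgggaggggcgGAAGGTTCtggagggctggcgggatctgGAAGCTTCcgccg
Of the 45 members, 35 had a promoter of 300 bases in the table. On both strands, GAANNTTC was found in 5 of the 35 (Dnaja1, Dnajb1, Dnajb6, Dnajc5g and Dnajc18) and in 8.59% of all 33469 promoters of that length. TTCNNGAA was found in 2 (Dnaja1 and Dnajc27) and in 8.77% of all promoters. The triple form, TTCNNGAA followed by NNTTC, contains both pairs and was found in Dnaja1, as the match GAACTTTCCAGAA starting at base 10 after the gene start, and in 0.798% of all promoters. Of the 5 genes with GAANNTTC, Dnaja1, Dnajb1 and Dnajb6 rose and Dnajc18 fell. These were 3 of the 10 members with a promoter that rose and 1 of the 9 that fell, and none of 13 uncalled members had a match. Whether the motif goes with a rise was not tested. A match describes letters in this window only.

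The remaining members of this group are known mainly from testis, and their levels were low. Dnajb3 had 7.66, 4.73 and 6.06 FPKM in shBmal1, against 0.796, 0.617 and 1.62 FPKM in shNC (log2 fold change 2.49 ± 0.44, SE; adjusted p = 0.00125, edgeR), from 73, 60 and 74 counts in shBmal1 and 40, 32 and 75 counts in shNC. Dnajb7 had 9, 12 and 10 counts in shBmal1 and none in any shNC library. Its mean in shBmal1 lay 41.3-fold above a floor of 3 counts over the shNC group, with no allowance for counting error in the shBmal1 counts. Dnajb7 passed the filter on low counts through shBmal1 alone, which fixed its direction. Both genes lie inside other genes on the opposite strand, Dnajb3 in Ugt1a6 and Dnajb7 in Xpnpep3, over their whole listed spans of 1014 and 1315 bases. Xpnpep3 averaged 15.8 CPM (counts scaled to library size) in shBmal1 and 21.0 CPM in shNC. Ugt1a6 averaged 2.28 CPM in shBmal1 and 4.135 CPM in shNC (log2 fold change −0.87, not called). Dnajb3 averaged 6.30 CPM in shBmal1 and 1.12 CPM in shNC. Use of strand in counting: not given in the sources used here. Reads of the genes in either pair cannot be told apart. Dnajb8 and Dnajb13 had no count.

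**Figure D2:**
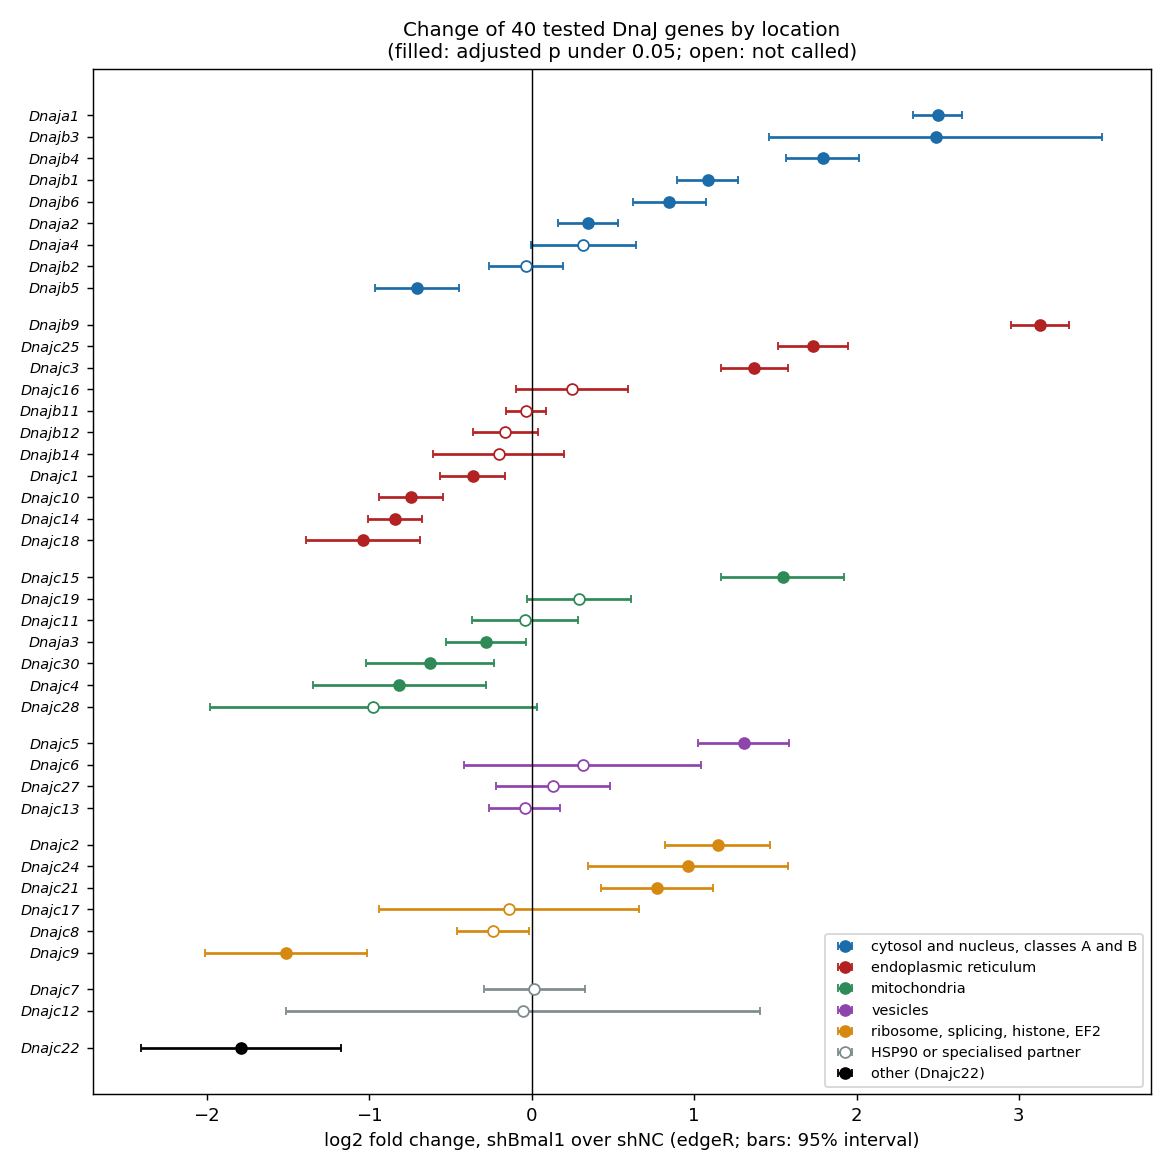
Log2 fold change (shBmal1 over shNC, edgeR) of 40 tested DnaJ genes with 95% intervals, grouped and coloured by the location of their proteins; filled points passed an adjusted p of 0.05, and Dnajb7, with no count in shNC, is left out. Cytosolic members lie mostly to the right of 0, and ER members spread from −1.04 for Dnajc18 to 3.13 for Dnajb9.

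The log2 fold changes of the ER members ran from −1.04 to 3.13. Out of 11, all of them tested, 3 rose (27.3%, background 36.0%), 4 fell (36.4%, background 35.3%) and the other 4 missed the threshold, shares near those of all genes. The median log2 fold change was −0.16, and 7 were called lower with TPM. Dnajb9, also called ERdj4, which brings BiP to the stress sensor IRE1 and takes part in ER-associated degradation (ENSRNOG00000004006, chromosome 6, 64165913 to 64170151, reverse strand), had 96.0, 104.2 and 93.6 FPKM in shBmal1, against 9.73, 10.4 and 10.9 FPKM in shNC. The lowest shBmal1 library was well above the highest shNC library. Its log2 fold change of 3.13 ± 0.078 (SE; adjusted p = 5.31e-08, edgeR) was the largest of any member with counts in both groups. Dnajc3, also called p58IPK, a BiP co-chaperone known as an inhibitor of the kinase PERK (ENSRNOG00000010352, chromosome 15, 104186792 to 104226329, forward strand), had 92.3, 111 and 111.9 FPKM in shBmal1, against 35.1, 38.0 and 39.7 FPKM in shNC (1.37 ± 0.089, SE; adjusted p = 4.05e-06, edgeR). Dnajc25, an ER membrane J protein, had 72.1, 79.3 and 83.6 FPKM in shBmal1, against 22.8, 22.8 and 19.9 FPKM in shNC (1.73 ± 0.093, SE; adjusted p = 1.45e-06, edgeR). All 3 genes had groups that did not overlap.

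Dnajb11, or ERdj3, the abundant soluble BiP co-chaperone that is also secreted, stayed near its control level. It had 77.1, 77.0 and 78.8 FPKM in shBmal1, against 72.6, 74.3 and 74.3 FPKM in shNC, so that its FPKM was higher in each shBmal1 library. The TMM factors, which multiply the library size, were 1.05 to 1.06 in shBmal1 and 0.936 to 0.956 in shNC. After TMM scaling the log2 fold change of Dnajb11 was −0.036 (95% interval −0.16 to 0.088), and it came to −0.41 with TPM (adjusted p = 0.000468, limma). Its direction therefore rests on the scaling. In FPKM, every shBmal1 library had more Dnajb9 than Dnajb11, and every shNC library had far less.

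Dnajc10, or ERdj5, a reductase that opens disulfide bonds of proteins bound for degradation, had 24.0, 29.5 and 25.3 FPKM in shBmal1, against 39.7, 41.1 and 41.2 FPKM in shNC (log2 fold change −0.74 ± 0.085, SE; adjusted p = 0.000103, edgeR). The other members that fell were membrane proteins of the ER. Dnajc14 averaged 13.1 ± 0.58 FPKM in shBmal1 and 21.7 ± 0.21 FPKM in shNC (−0.84 ± 0.072, SE). Dnajc18 had 4.63, 4.94 and 4.02 FPKM in shBmal1, against 8.11, 8.48 and 9.46 FPKM in shNC (−1.04 ± 0.15, SE; adjusted p = 0.000427, edgeR). Dnajc1, or ERdj1, which sits at the ribosome tunnel exit, had 23.1, 20.1 and 21.7 FPKM in shBmal1, against 24.1, 26.8 and 26.4 FPKM in shNC (−0.36; adjusted p = 0.00575, edgeR), a fall that was lost against a fold threshold of 1.2, with total count scaling and with thinned shNC counts (adjusted p = 0.0744, 0.0753 and 0.0524). Dnajb12, Dnajb14 and Dnajc16 ran from −0.20 to 0.25 and did not pass. Dnajb12 had 20.4, 24.9 and 23.7 FPKM in shBmal1 and 24.2, 23.7 and 23.6 FPKM in shNC. Dnajb14 had 8.32, 5.72 and 6.59 FPKM in shBmal1 and 6.58, 7.80 and 7.61 FPKM in shNC, and it shares 1283 bases with H2az1 on the same strand. Dnajc16 had 7.79, 5.87 and 6.44 FPKM in shBmal1 and 4.94, 5.01 and 5.74 FPKM in shNC. In FPKM the groups overlapped for Dnajb12 and Dnajb14 and lay apart for Dnajc16, and each of the 3 passed under at least 1 other setting.

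Promoters of Dnajb9 and Dnajc3 are shown because both genes rose and their windows hold a motif of the clock or of ER stress. They lie at chr6:67002022-67002301 (reverse strand) and chr15:102432417-102432696 (forward strand) on GRCr8, with the same limits as above. Capitals mark the E-box CACGTG, the site that CLOCK and BMAL1 bind, in Dnajb9, and the ER stress response element, CCAAT and CCACG separated by 9 bases of any kind, in Dnajc3.
Dnajb9: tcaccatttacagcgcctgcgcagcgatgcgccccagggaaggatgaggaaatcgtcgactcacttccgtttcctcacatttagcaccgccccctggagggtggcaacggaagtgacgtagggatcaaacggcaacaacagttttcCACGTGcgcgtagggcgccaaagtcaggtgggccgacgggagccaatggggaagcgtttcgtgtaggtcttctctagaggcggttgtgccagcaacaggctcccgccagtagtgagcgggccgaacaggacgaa
Dnajc3: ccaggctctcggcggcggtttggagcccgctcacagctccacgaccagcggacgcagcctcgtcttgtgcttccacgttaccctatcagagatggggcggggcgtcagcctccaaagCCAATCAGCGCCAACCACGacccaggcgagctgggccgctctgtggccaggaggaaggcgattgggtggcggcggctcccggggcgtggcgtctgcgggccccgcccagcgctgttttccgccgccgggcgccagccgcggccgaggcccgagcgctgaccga
On both strands, CACGTG was found in 3 of 35 member promoters, against 6.42% of all promoters. They belong to Dnajb9 and Dnajc25, which rose, and to Dnajc16, which did not pass. That is 2 of the 10 members with a promoter that rose, 0 of the 9 that fell and 1 of the 13 uncalled. The ER stress response element was found in Dnajc3 and in 0.0657% of all promoters. It was not matched in the 300 bases of Dnajb9 or Dnajb11.

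**Figure D3:**
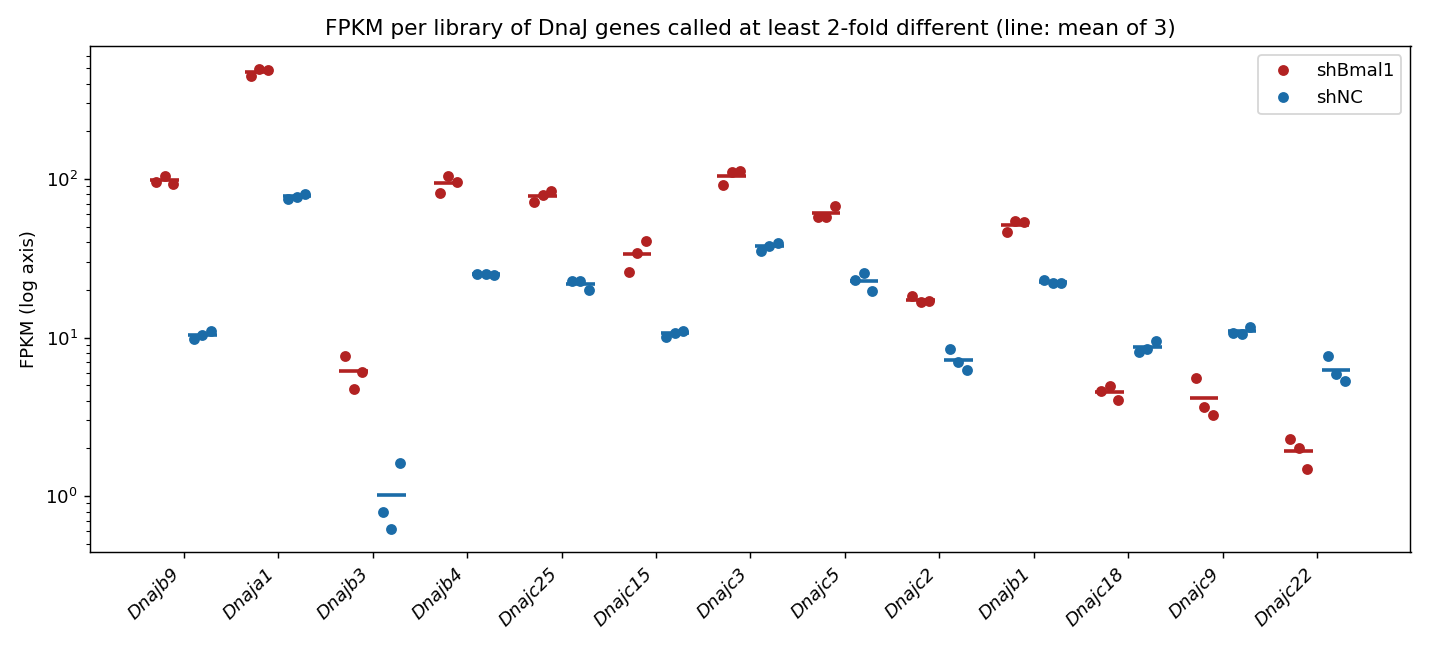
FPKM per library (log axis) of the 13 DnaJ genes called at least 2-fold different with counts in both groups, shBmal1 in red and shNC in blue, with a line at the mean of 3 libraries. The groups do not overlap for any of them, and Dnajb3 in shNC has the widest spread, from 0.617 to 1.62 FPKM.

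Among the 7 mitochondrial members, all of them tested, 1 rose (14.3%, background 36.0%), 3 fell (42.9%, background 35.3%) and the other 3 missed the threshold, with a median log2 fold change of −0.28. Dnajc15 (also MCJ), a J protein of the inner membrane that is known as a brake on respiratory complex I, was the one that rose. It had 25.9, 34.0 and 40.6 FPKM in shBmal1, against 10.1, 10.7 and 11.1 FPKM in shNC (1.55 ± 0.16, SE; adjusted p = 6.6e-05, edgeR). Every shBmal1 library was well above every shNC library. Its paralog Dnajc19, a subunit of the import motor that pulls proteins into the matrix, had 6.79, 7.13 and 7.85 FPKM in shBmal1 and 5.03, 5.23 and 6.23 FPKM in shNC. The groups were separate, but the log2 fold change of 0.29 (95% interval −0.027 to 0.61) did not pass. It was called higher under 5 of 19 alternative settings (adjusted p from 0.0203 to 0.0483), and Dnajc19 shares 18884 bases with Fxr1 on the opposite strand, which rose by 2.47 on the log2 scale. Dnajc30, which is linked to complex I repair and ATP synthase, had 8.69, 7.12 and 6.72 FPKM in shBmal1, against 10.7, 10.9 and 10.9 FPKM in shNC (−0.62; adjusted p = 0.0108, edgeR). Dnajc4 averaged 3.84 ± 0.60 FPKM in shBmal1 and 6.34 ± 0.37 FPKM in shNC (SD, n = 3 each; −0.82).

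Dnaja3, the class A member of the matrix and a partner of mortalin (Hspa9), had 13.2, 16.4 and 15.02 FPKM in shBmal1, against 17.5, 15.8 and 17.0 FPKM in shNC. The FPKM overlap, and its small fall after TMM scaling (−0.28; adjusted p = 0.0417, edgeR) was lost under 13 of 19 alternative settings, among them every library left out except shBmal1 replicate 2. Dnajc11, a protein of the cristae-organizing complex, averaged 16.0 ± 3.27 FPKM in shBmal1 and 15.3 ± 0.32 FPKM in shNC (SD, n = 3 each) and did not pass. Dnajc28, with 1.62, 0.734 and 0.997 FPKM in shBmal1 and 2.66, 1.45 and 2.01 FPKM in shNC, had overlapping groups and a log2 fold change of −0.97 with a 95% interval of −1.98 to 0.034. It rested on 13 to 22 counts per shBmal1 library.

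Of the 6 vesicle members, 4 were tested, 1 rose (25%, background 36.0%), none fell (background 35.3%) and 3 did not pass. Dnajc5, the cysteine string protein that guards SNARE proteins on secretory vesicles, had 57.6, 57.5 and 67.7 FPKM in shBmal1, against 23.0, 25.7 and 19.8 FPKM in shNC (log2 fold change 1.31 ± 0.12, SE; adjusted p = 3.05e-05, edgeR). Its relatives Dnajc5b and Dnajc5g had no count. Dnajc13, an endosomal J protein, had 8.81, 10.6 and 10.8 FPKM in shBmal1 and 8.86, 10.1 and 9.76 FPKM in shNC. The values overlapped, at a log2 fold change of −0.042 (95% interval −0.26 to 0.18), but with TPM it was called lower (−0.40; adjusted p = 0.0209, limma). Dnajc6, which encodes the clathrin-uncoating factor auxilin, and Dnajc27 came to 0.31 and 0.13, at mean levels of 0.790 and 3.09 FPKM in shBmal1 and 0.599 and 2.62 FPKM in shNC. The 95% interval of Dnajc6 ran from −0.42 to 1.04.

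Of the 6 members tied to the ribosome, splicing, histones and elongation factor modification, 3 rose (50%, background 36.0%), 1 fell (16.7%, background 35.3%) and 2 missed the threshold. Dnajc2, the ribosome-associated J protein that meets nascent chains (zuotin in yeast), had 18.3, 16.7 and 17.1 FPKM in shBmal1, against 8.498, 7.05 and 6.22 FPKM in shNC (log2 fold change 1.14 ± 0.14, SE; adjusted p = 0.000151, edgeR). Dnajc21, which acts in maturation of the large ribosomal subunit, averaged 9.69 ± 1.02 FPKM in shBmal1 and 5.26 ± 0.48 FPKM in shNC (SD, n = 3 each; 0.77). Dnajc24, needed for the diphthamide modification of elongation factor 2, had 7.96, 6.40 and 9.21 FPKM in shBmal1, against 4.31, 3.30 and 3.58 FPKM in shNC (0.96; adjusted p = 0.0117), and after a correction for gene length it had an adjusted p of 0.0561 (edgeR). All 3 had groups that did not overlap.

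Dnajc9, a histone chaperone active in replicating cells, was the member of this group that fell. It had 5.54, 3.67 and 3.24 FPKM in shBmal1, against 10.7, 10.5 and 11.6 FPKM in shNC (−1.51 ± 0.22, SE; adjusted p = 0.000365, edgeR). Every shBmal1 library was below every shNC library. Dnajc8, a spliceosome component, had 33.8, 42.4 and 38.4 FPKM in shBmal1 and 42.8, 39.6 and 42.6 FPKM in shNC (−0.24; adjusted p = 0.0553), and it passed under 5 of 19 alternative settings. Dnajc17, a splicing-related member with an RNA recognition motif, averaged 4.07 ± 1.45 FPKM in shBmal1 and 4.22 ± 1.02 FPKM in shNC (SD, n = 3 each), a spread that exceeds the difference. Dnajc17 shares 546 bases with LOC691418 on the opposite strand, which rose by 1.86 on the log2 scale.

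Dnajc7, whose tetratricopeptide repeats bind both HSP70 and HSP90, had 20.1, 29.0 and 26.7 FPKM in shBmal1 and 21.6, 25.1 and 22.9 FPKM in shNC. With a log2 fold change of 0.016 (95% interval −0.30 to 0.33) it did not pass. Dnajc12, a co-chaperone of aromatic amino acid hydroxylases, had 0.255, 1.89 and 1.19 FPKM in shBmal1 and 1.17, 1.03 and 1.09 FPKM in shNC. The shBmal1 values spread widely on 3, 30 and 18 counts, so that its 95% interval ran from −1.51 to 1.40. Dnajc22, a membrane J protein outside the groups above, had the largest fall of all members, with 2.30, 2.02 and 1.49 FPKM in shBmal1, against 7.60, 5.88 and 5.36 FPKM in shNC (−1.79 ± 0.27, SE; adjusted p = 0.000469, edgeR).

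The partners of the J proteins were taken from 5 lists of 55 genes, of which 54 were found and tested. Over these, 25 rose (46.3%, background 36.0%), 17 fell (31.5%, background 35.3%) and 12 did not pass, with a median log2 fold change of 0.23. Of 14 tested HSP70 genes, 9 rose (64.3%, background 36.0%) and 3 fell (21.4%, background 35.3%). Among the 3, Hspa12b passed the filter on low counts through shNC alone, so that its direction was fixed. The 17 falls over the 5 lists include it. Hspa1b, the stress-inducible HSP70, had 1700, 1680 and 2267 FPKM in shBmal1, against 35.9, 35.0 and 32.5 FPKM in shNC (5.66 ± 0.14, SE). Its share of reads could also include near-identical copies, since Hspa1a was not found by symbol. Hsph1, an HSP110 that resets HSP70 by nucleotide exchange, had 664, 755 and 782 FPKM in shBmal1, against 15.4, 15.4 and 16.6 FPKM in shNC (5.43 ± 0.085, SE). Both exceeded the rise of Dnaja1. Hspa8, which encodes HSC70, averaged 763 ± 67.8 FPKM in shBmal1 and 195 ± 16.2 FPKM in shNC, and the ratio of Dnaja1 to Hspa8 in FPKM was 0.592 to 0.644 in shBmal1 and 0.380 to 0.436 in shNC.

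Of 15 exchange factors and regulators, 8 rose (53.3%, background 36.0%), 4 fell (26.7%, background 35.3%) and 3 did not pass. Bag3 averaged 228 ± 27.8 FPKM in shBmal1 and 49.5 ± 0.79 FPKM in shNC (SD, n = 3 each; log2 fold change 2.09), and St13 and Stip1, which link HSP70 and HSP90, rose by 1.96 and 1.58. Stub1, the ubiquitin ligase CHIP, and Bag2, known as its inhibitor, fell (−1.05 and −1.196). Of the heat shock factor genes, Hsf1 fell by 0.75 and Hsf2 rose by 1.38. Of 6 HSP90 genes and co-chaperones, 4 rose (66.7%, background 36.0%) and 2 fell (33.3%, background 35.3%), with Hsp90aa1 at 627 ± 24.9 FPKM in shBmal1 and 65.7 ± 5.93 FPKM in shNC, and the ER and mitochondrial forms Hsp90b1 and Trap1 lower (−0.60 and −0.62).

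In the ER, partners moved in both directions. Hspa5, which encodes BiP, had 1328, 1389 and 1392 FPKM in shBmal1, against 565, 542 and 573 FPKM in shNC (1.18 ± 0.051, SE). Its exchange factors Hyou1 and Sil1 fell, Hyou1 to 18.0 ± 1.63 FPKM in shBmal1, against 75.7 ± 1.495 FPKM in shNC (−2.18), and Sil1 by 0.90. Of 13 sensors and factors of the unfolded protein response, 3 rose (23.1%, background 36.0%), 6 fell (46.2%, background 35.3%) and 4 did not pass. Ddit3, which encodes the stress transcription factor CHOP, rose by 2.04, while Xbp1 (−1.38), Syvn1 (−1.90), Pdia4 (−1.04), Creld2 (−1.202) and Herpud1 (−0.71) fell. In mitochondria, Hspa9, which encodes mortalin, averaged 659 ± 38.5 FPKM in shBmal1 and 107 ± 5.72 FPKM in shNC (2.51), beside the values of Dnaja3 above. A further list held 6 genes with other names, for J-domain proteins or for factors related to them that need not hold a J domain. Of these 6, 1 was called higher (16.7%, background 36.0%) and 2 lower (33.3%, background 35.3%). Dnlz rose by 0.62 (adjusted p = 0.0174, edgeR), Sec63 (−0.46) and Hscb (−1.197) fell and 3 did not pass. The call on Dnlz was lost with TPM and without shBmal1 replicate 2, shBmal1 replicate 3 or shNC replicate 2 (adjusted p = 0.333, 0.0553, 0.075 and 0.0612). Manf, a secreted ER stress factor, rose by 0.49, a call lost with TPM and after a correction for gene length (adjusted p = 0.441 and 0.0855).

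**Figure D4:**
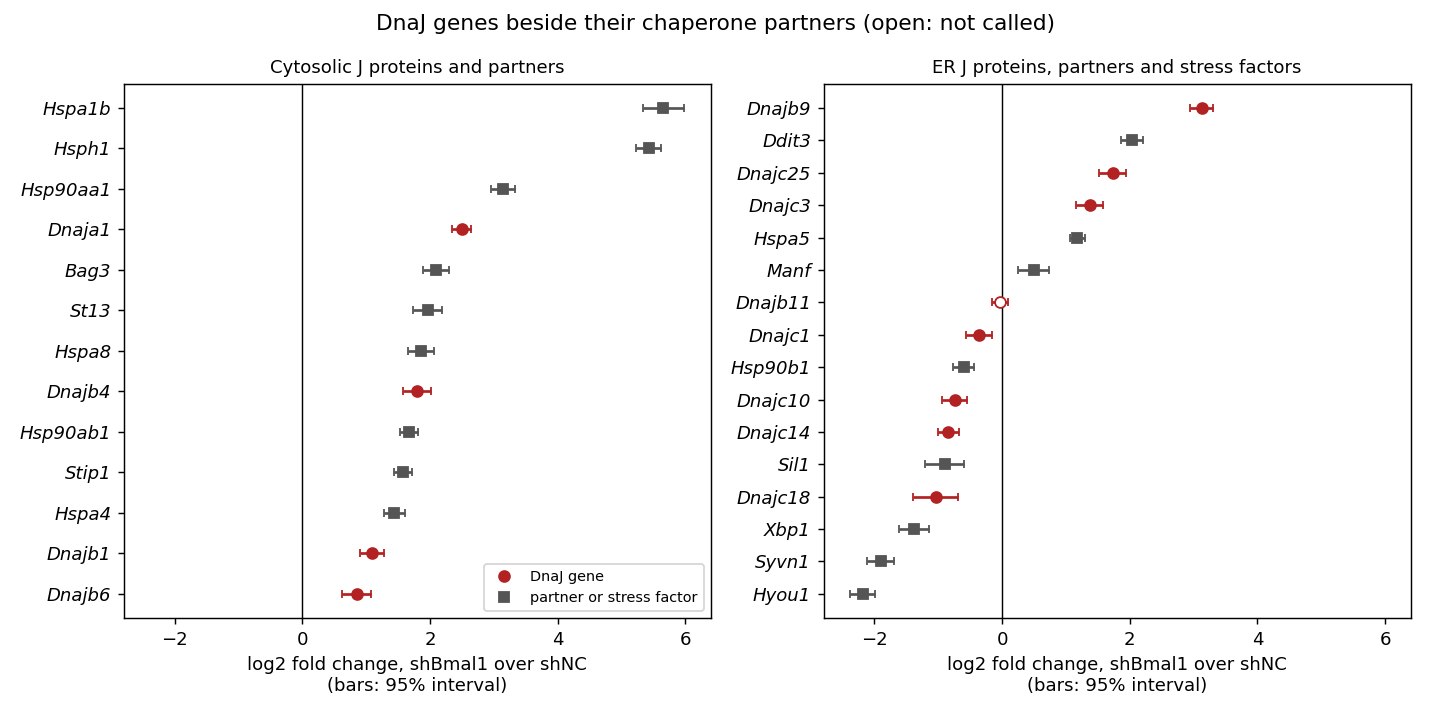
Log2 fold change (shBmal1 over shNC, edgeR) with 95% intervals of DnaJ genes (red circles) and of partners or stress factors (grey squares), in the cytosol (left) and the ER (right); the genes drawn were picked after their values were seen. On the left Hspa1b and Hsph1 lie above 5, and on the right the genes run from −2.18 for Hyou1 to 3.13 for Dnajb9. Dnajb11, at −0.036, is the only open point drawn on the right. Dnajb12, Dnajb14, Dnajc16, Eif2ak3, Atf6, Sel1l and Sdf2l1, which did not pass, are left out of that panel. Also left out there are Ern1, Herpud1, Pdia4 and Creld2, which fell, and Atf4, which rose. The left panel holds only genes called higher, so its uniform direction comes from the picking. Left out of it, among others, are Dnajb5 (−0.71), Bag2 (−1.20), Stub1 (−1.05), Hsf1 (−0.75), Hspa2 (−1.49) and Hspa12b (−3.07), which fell. Hspa12b passed the filter on low counts through shNC alone. Genes that did not pass, among them Dnajb2, Dnaja4, Hspa12a, Hspa14 and Bag4, are also left out.

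Gene length and starting level were compared across the calls. The 15 members that rose had a median length, on the scale implied by counts and FPKM, of 1806 bases, the 10 that fell 1950 bases and the 16 uncalled members 2172 bases. Over the 41 tested members, the log2 fold change and length had a Spearman correlation of −0.093. The members that rose had a median of 51.3 FPKM in shBmal1 and 20.9 FPKM in shNC, and those that fell 6.87 FPKM in shBmal1 and 10.9 FPKM in shNC. These are descriptions over genes that share the same 6 libraries.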

How the data were processed

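RNA of 3 shBmal1 and 3 shNC libraries was sequenced as paired-end reads from poly(A)-selected RNA, per the labels' protocols. Tools listed, without their roles, in the submitters' processing notes are edgeR, DESeq2, HISAT2 2.0.4, cutadapt 1.9 and StringTie 1.3.4d. Build, annotation release and strand setting: not given in the sources used here. Raw counts per gene and library were deposited, per the file headers. FPKM were computed by the authors, per the file headers, and were proportional to the counts (SD at most 0.0078 on the log2 scale); genes without counts carry 1e-04 FPKM in the table and are given as 0.

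Counts of all 14342 genes passing filterByExpr (minimum count 10, total 15) were scaled by TMM and compared with edgeR 4.0.16 (R 4.3.3; quasi-likelihood test, no replicate block, Benjamini-Hochberg over all genes, threshold 0.05). SEs and 95% intervals come from that fit, and the intervals are not adjusted for the number of genes. The procedure was tested on simulated counts. Alternatives used DESeq2 1.42.0 and limma 3.58.1, other scalings, pseudocounts of 1 and 0.1, no filter, thinned shNC counts, length offsets, a fold threshold of 1.2, the replicate number as a block, the 50 most abundant genes left out, and each library left out. Leaving out mitochondrial rRNA was added after seeing the data.

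Counts of 3 correspond to 0.257 to 0.342 CPM in shBmal1 and 0.0603 to 0.0681 CPM in shNC. Same-numbered libraries did not deviate together (correlations −0.071, 0.016 and 0.034). Chi-square tests of counts between libraries of a group gave 10.4 to 23.5 per degree of freedom, so none was treated as a duplicate.

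Values per library are given for members called at least 2-fold different, for the 6 most abundant in either group and for members whose call changed under an alternative; other values, including those of partner genes, were chosen after they were seen. Members and lists were chosen with earlier results of these data known. Promoters are from RefSeq (GRCr8).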

Additional observations from a re-analysis of the deposited data

How the results depend on the processing

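Of the 25 DnaJ genes called, 21 kept their call and direction under each of the alternatives that gave them a value, although Dnajb7 had too few counts to be tested once shNC was thinned to the shBmal1 depth. Dnajb7 is among the 21, but the filter had fixed its direction, so its kept call shows nothing further. Dnajc24, Dnaja2, Dnaja3 and Dnajc1 lost theirs under at least 1. Counts of members higher and lower ran from 14 to 18 and from 8 to 12, except for 17 lower with TPM. With the replicate block, 15 members were higher and 9 lower, and over all genes 4663 were higher and 4752 lower; Dnaja3 was the member that lost its call (adjusted p = 0.0923). Correlations of same-numbered libraries were all near 0 (−0.071, 0.016 and 0.034), and not every library correlated best with its own number. Leaving out each library in turn gave 15 to 16 members higher and 9 to 12 lower. Calls over all genes split as 37.8% higher with TPM, against 50.5%. The median of all genes moved from −0.014 to −0.35 with TPM and to 0.15 with total count scaling, and all reversals were of Dnaja2 or of members that had not passed. With TPM, log2 fold changes turned to −0.027 for Dnaja2, −0.061 for Dnaja4, −0.049 for Dnajc6, −0.073 for Dnajc19, −0.12 for Dnajc16, −0.21 for Dnajc27 and −0.36 for Dnajc7, which without a count filter came to −0.057. TPM also made Dnajb2, Dnajb11, Dnajb12, Dnajb14, Dnajc8, Dnajc13 and Dnajc28 pass as lower (−0.41, −0.41, −0.53, −0.55, −0.61, −0.40 and −1.02). Dnajb2, Dnajb11, Dnajc11 and Dnajc13 turned to 0.026, 0.024, 0.019 and 0.019 with DESeq2, 0.027, 0.024, 0.019 and 0.018 with RLE size factors, 0.13, 0.12, 0.12 and 0.12 with total count scaling, 0.068, 0.074, 0.042 and 0.059 with FPKM and a pseudocount of 1, 0.069, 0.074, 0.043 and 0.064 with a pseudocount of 0.1, and 0.059, 0.021, 0.028 and 0.052 with thinned shNC. Dnajc12 turned to 0.0015, 0.0044, 0.10 and 0.19 with DESeq2, RLE, total count scaling and thinning, Dnajc17 to 0.017 with total count scaling, and Dnajc11 and Dnajc13 to 0.031 and 0.15 with length offsets. Leaving out each library in turn gave −0.017 to 0.19 for Dnajc27, −0.13 to 0.12 for Dnajc7, −0.17 to 0.019 for Dnajb2, −0.21 to 0.078 for Dnajc11, −0.12 to 0.0085 for Dnajc13, −0.72 to 0.37 for Dnajc12 and −0.43 to 0.066 for Dnajc17. Apart from scaling, the cause of these changes was not tested. Depth and group cannot be told apart, and the shBmal1 depth limits what can be said of Dnajc12, Dnajc17, Dnajc28, Dnajb3 and Dnajb7.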
